A study of Mus musculus with 16 samples.

Results

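C-type lectin receptors are membrane proteins with which dendritic cells bind sugars and related structures on fungi, bacteria, dying cells and their own glycoproteins. Transcripts of 9 such genes were followed: Clec4e, Clec4d, Clec4n, Clec7a, Clec9a, Clec5a, Clec4a2, Clec10a and Cd209a. They form a list chosen by gene name, and each was read from the only probe set that the platform's annotation assigns to it alone, among 19272 genes with such a probe set. The data are 16 microarrays of dendritic cells grown from C57BL/6 mouse bone marrow with GM-CSF at 10 ng/mL, a growth factor that turns marrow precursors into myeloid cells. The 4 groups of 4 arrays were cells whose medium held extra NaCl from day 3 on, for 450 mOsm/L, and which then received LPS at 10 ng/mL, the same cells without LPS, cells raised at 290 mOsm/L and given LPS, and cells at 290 mOsm/L without LPS. All cells were collected on day 7 and plated for 6 h with or without LPS, the bacterial cell wall component that is sensed by Tlr4. Each group holds 1 array of each of mice 1 to 4, so its replicates are separate animals. Levels are log2 values after RMA normalization, and a level is not compared between genes, because each probe set has its own brightness. Differences are log2 changes with limma's standard error, and calls are changes with an adjusted p under 0.05, by Benjamini-Hochberg over all 10236 genes tested.

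The receptors differ in how they signal. Clec4e (Mincle), Clec4d (MCL) and Clec4n (Dectin-2) pair with the adaptor encoded by Fcer1g, while Clec5a (MDL-1) pairs with the one encoded by Tyrobp. Clec7a, the beta-glucan receptor Dectin-1, and Clec9a, a receptor for actin exposed on dead cells, carry a tyrosine motif in their own tails. All of these can recruit the kinase Syk. For several of them, Clec7a included, the Card9, Bcl10 and Malt1 proteins then carry the signal to NF-kB. Clec4a2 (DCIR) holds an inhibitory motif that recruits the phosphatases encoded by Ptpn6 and Ptpn11. Clec10a (MGL1) and Cd209a, a mouse relative of human DC-SIGN, are best known for binding and taking up glycoproteins.

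The cultures expressed dendritic cell genes, with group means of H2-Ab1 from 13.28 to 13.40 and of the CD11c gene Itgax from 11.41 to 12.13. Flt3, a growth factor receptor gene of conventional dendritic cells, was dim, at 6.10 to 7.30, against a median of 6.83 over all values. Zbtb46, another gene of the shared dendritic cell list, had group means of 6.80 to 7.48. Of the 8 genes of that list, 5 to 8 exceeded that median on every array of a group. The cultures also expressed macrophage genes: 10 to 11 of 13 such markers exceeded that median on every array of each group. Neutrophil markers moved with salt. Of 16 of them, 0 rose and 13 fell at 450 mOsm with LPS, with a log2 of the summed level of 13.95 to 14.04, against 15.19 to 15.50 at 290 mOsm with LPS. Without LPS, 0 rose and 15 fell, and the summed level was 12.50 to 12.69 at 450 mOsm, against 14.77 to 15.16 at 290 mOsm. Macrophage markers also moved with salt. Of 12 tested, 1 rose and 8 fell with salt in LPS-treated cells, where the summed level was 14.88 to 15 at 450 mOsm, against 15.27 to 15.30 at 290 mOsm. Without LPS, 1 rose and 7 fell, and it was 14.90 to 14.98 at 450 mOsm, against 15.15 to 15.19 at 290 mOsm. Of 6 tested mast cell and basophil markers, 1 rose and 3 fell with salt in LPS-treated cells, with summed levels of 10.58 to 10.81 at 450 mOsm, against 11.19 to 11.96 at 290 mOsm. Without LPS, 0 rose and 6 fell, with 9.20 to 9.35 at 450 mOsm, against 10.11 to 10.87 at 290 mOsm. The dendritic cell lists varied. Of 8 tested shared dendritic cell markers, 2 rose and 2 fell with salt in LPS-treated cells, and 3 rose and 1 fell without LPS. Of 6 tested markers of the cDC1 subset, 1 rose and 1 fell with LPS, and 2 rose and 1 fell without. Of 5 tested markers of the cDC2 subset, among them the lectin gene Mgl2, 1 rose and 1 fell with salt in LPS-treated cells. Without LPS, 3 of these rose and 1 fell. Of 4 tested plasmacytoid dendritic cell markers, 2 rose and 0 fell with salt, both with LPS and without. Siglech, a further gene of that list, was dim, with group means of 5.93 to 6.04. Of all genes tested, 38.6% were called for salt with LPS and 44.3% for salt without LPS. The part of all these shifts in the salt changes of the receptors was not tested. In a culture with several cell types, fewer cells of a type and less RNA per cell cannot be told apart. Array medians lay between 6.78 and 6.93, and an array's median r with the rest of its group, across genes, was lowest for mouse 4 at 450 mOsm, at 0.990.

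Of the 9 genes, 8 passed the filter on dim probe sets and were tested, Clec9a and Clec10a only through the groups in which they were high, so the counts and medians describe these 8 and support nothing further. With salt, 2 were called higher and 4 lower in LPS-treated cells, where 38.6% of all genes were called, 16.8% higher and 21.8% lower. In cells without LPS, salt called 3 higher and 4 lower, where 44.3% of all genes were called, 20.6% higher and 23.7% lower. With LPS, 2 were called higher and 4 lower at 450 mOsm, where 71.8% of all genes were called, 26.4% higher and 45.3% lower. At 290 mOsm LPS called 3 higher and 4 lower, where 73.5% of all genes were called, 26.4% higher and 47.1% lower. For LPS these counts are near the background. The arrays of the groups compared did not overlap for 7 of the 8 genes for salt with LPS (39.4% of all genes) and 6 for salt without LPS (36.8%). For LPS they did not overlap for 6 at 450 mOsm (66.2%) and 7 at 290 mOsm (69.1%). The median log2 change of the 8 was -0.32 for salt with LPS and -0.26 for salt without LPS, where the median of all genes was 0.00 in both. For LPS it was -0.50 at 450 mOsm and -0.44 at 290 mOsm, where the median of all genes was -0.09 and -0.11. Cd209a was below the filter level on every array.

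**Figure D1:**
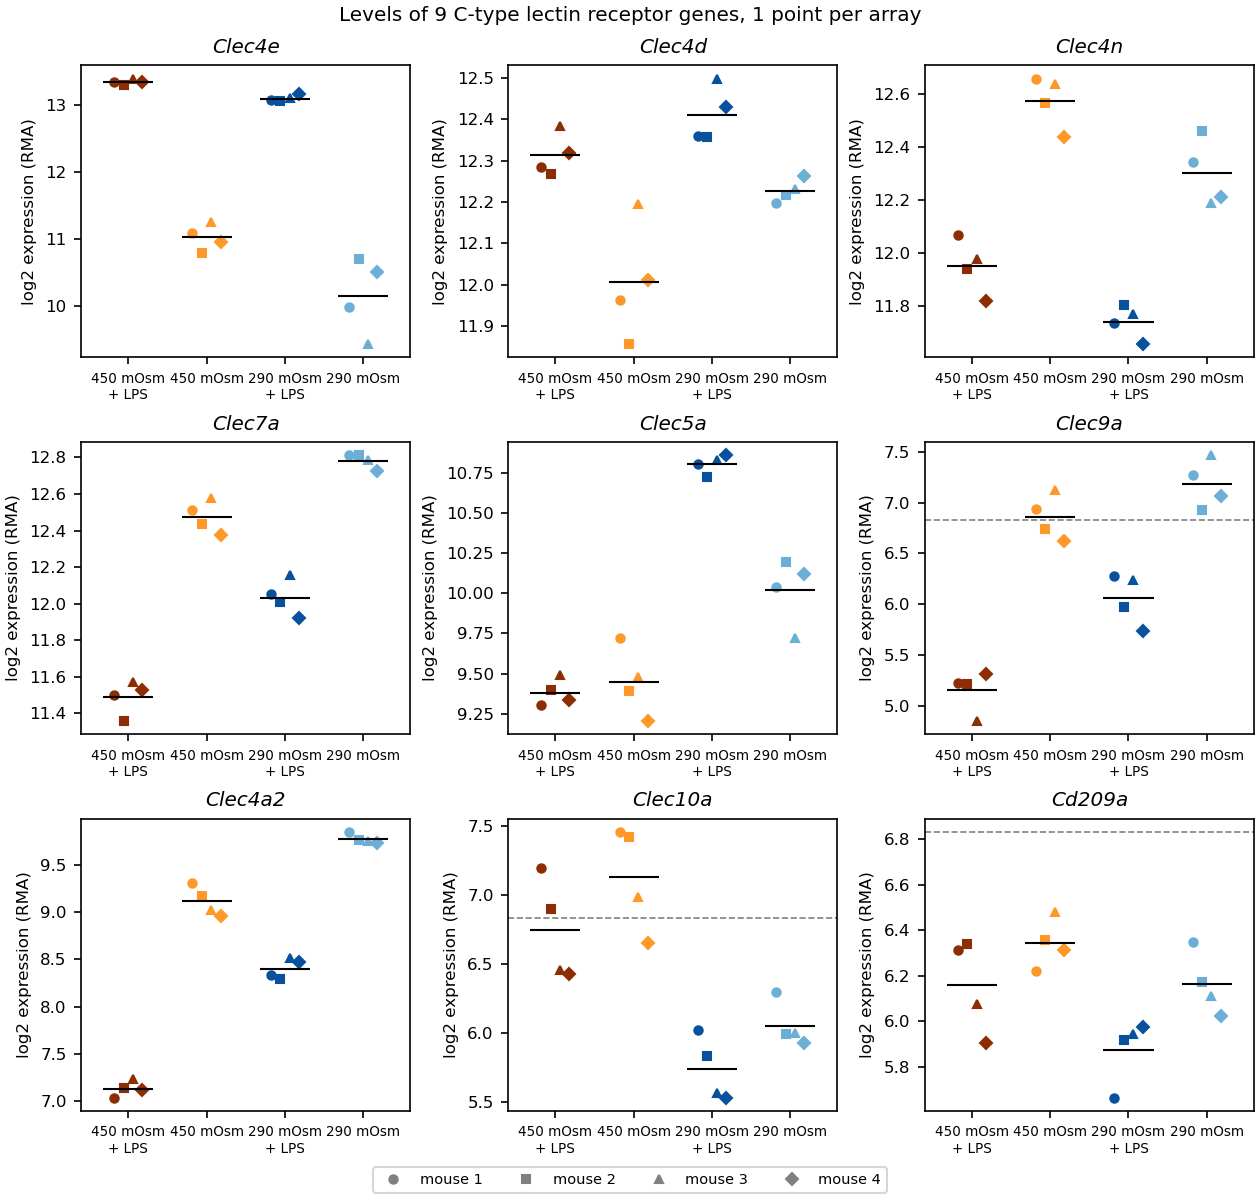
Log2 expression of the 9 receptor genes on each array. Each point is 1 array, its shape gives the mouse, the black line is the group mean, and the dashed line marks the filter level of 6.83 where it falls within a panel. Clec4e was highest in both LPS groups, Clec4a2 and Clec7a fell with salt and with LPS, and Cd209a lay below the dashed line on all 16 arrays.

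Clec4e, which encodes the receptor for mycobacterial cord factor, had the largest rise with LPS of the 8 genes. With LPS the values in mice 1 to 4 were 13.34, 13.30, 13.40 and 13.34 at 450 mOsm, and 13.07, 13.05, 13.10 and 13.16 at 290 mOsm. Without LPS they were 11.09, 10.78, 11.25 and 10.96 at 450 mOsm, and 9.98, 10.70, 9.43 and 10.50 at 290 mOsm. Both LPS groups stood above both others, salt stood above normal medium within each pair, and no groups overlapped. LPS raised Clec4e by 2.32 ± 0.18 at 450 mOsm (5.01-fold, adjusted p = 1.60e-09) and by 2.94 ± 0.18 at 290 mOsm (7.70-fold, adjusted p = 5.98e-11). At 290 mOsm 1.19% of all genes had a larger change in either direction. With LPS the gene lay between 13.05 and 13.40, where the brightest value of the data was 14.32. Differences between bright values can be compressed, which was not tested for this gene.

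Salt raised Clec4e in unstimulated cells by 0.87 ± 0.18 (1.83-fold, adjusted p = 0.000981), higher in 4 of 4 mice. The size varied between mice, at 1.11, 0.08, 1.83 and 0.45, and without mouse 3 the rise was 0.55 (adjusted p = 0.00710). With LPS the salt difference was 0.25 ± 0.18 (adjusted p = 0.294), positive in 4 of 4 mice, with values that did not overlap between groups. The spread of the 290 mOsm arrays without LPS (SD 0.57) enters that error, because the 4 groups share 1 variance. A fit of the 2 groups with LPS alone gave the same difference with adjusted p = 0.00134. The interaction of salt and LPS was -0.62 ± 0.26 (adjusted p = 0.10), negative in 3 of 4 mice, and among the 32 alternatives it passed when mouse 2 (adjusted p = 0.0372) or its 290 mOsm array (adjusted p = 0.0168) was left out.

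Clec4d, whose protein joins Mincle in 1 receptor complex, lies next to Clec4e on chromosome 6 but hardly moved. With LPS its values were 12.28, 12.27, 12.38 and 12.32 at 450 mOsm, and 12.36, 12.36, 12.50 and 12.43 at 290 mOsm. Without LPS they were 11.96, 11.86, 12.19 and 12.01 at 450 mOsm, and 12.20, 12.22, 12.23 and 12.26 at 290 mOsm. The gene was lowest in salt without LPS, and the 2 groups with LPS overlapped. LPS raised it by 0.31 ± 0.06 at 450 mOsm (adjusted p = 0.000190) and by 0.18 ± 0.06 at 290 mOsm (adjusted p = 0.0114). Salt gave -0.10 ± 0.06 with LPS (adjusted p = 0.214) and lowered the gene by 0.22 ± 0.06 without LPS (adjusted p = 0.00746). This salt call was lost without mouse 2 (adjusted p = 0.0699) or mouse 4 (adjusted p = 0.0532), and quantile normalization reduced the LPS rise at 290 mOsm to 0.10 (adjusted p = 0.128) and that at 450 mOsm to 0.19 (adjusted p = 0.00736).

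The 250 bases before the start sites of these neighbours, and of Clec5a and Clec4a2, are shown because Clec4e and Clec4d are adjacent and had LPS changes of different size, and because salt changed Clec5a and Clec4a2 differently with and without LPS. They are from RefSeq (GRCm38.p6), whose table held 7 of the 9 members. Capitals mark GAGGAA, the core of sites for the myeloid factor PU.1, or TGGAAA, the core of sites for NFAT-type factors, to which the osmotic factor Nfat5 belongs, on either strand. Clec4e is at chr6:123289872-123290121 and Clec5a at chr6:40585806-40586055 on the minus strand. Clec4d is at chr6:123261857-123262106 and Clec4a2 at chr6:123122440-123122689 on the plus strand.
Clec4e: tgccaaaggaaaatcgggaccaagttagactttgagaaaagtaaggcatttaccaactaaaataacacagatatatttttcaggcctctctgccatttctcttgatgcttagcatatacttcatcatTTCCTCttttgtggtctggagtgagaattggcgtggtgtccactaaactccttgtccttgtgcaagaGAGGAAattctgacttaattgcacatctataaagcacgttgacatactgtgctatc
Clec4d: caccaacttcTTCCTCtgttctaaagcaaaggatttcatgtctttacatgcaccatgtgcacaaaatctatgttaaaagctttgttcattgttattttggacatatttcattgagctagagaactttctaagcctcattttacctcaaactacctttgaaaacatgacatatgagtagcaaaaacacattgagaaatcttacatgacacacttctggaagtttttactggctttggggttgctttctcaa
Clec5a: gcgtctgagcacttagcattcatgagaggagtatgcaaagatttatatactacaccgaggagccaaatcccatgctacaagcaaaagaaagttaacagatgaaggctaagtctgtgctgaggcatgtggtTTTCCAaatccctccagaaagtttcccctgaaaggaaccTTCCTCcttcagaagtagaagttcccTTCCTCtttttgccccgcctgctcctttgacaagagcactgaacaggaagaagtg
Clec4a2: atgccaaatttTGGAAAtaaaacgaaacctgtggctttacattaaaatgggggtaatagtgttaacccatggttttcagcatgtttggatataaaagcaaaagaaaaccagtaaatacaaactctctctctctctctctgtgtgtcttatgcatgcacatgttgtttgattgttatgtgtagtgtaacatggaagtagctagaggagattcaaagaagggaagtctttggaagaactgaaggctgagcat
GAGGAA occurred 2 times before Clec4e, 2 times before Clec5a, 1 time before Clec4d and 0 times before Clec4a2. It was found in 23.3% of 32851 promoter windows of this length. TGGAAA occurred 1 time before Clec5a and 1 time before Clec4a2, and was found in 18.6% of windows. Among the members not shown, it occurred 1 time before Clec9a, 1 time before Cd209a and 0 times before Clec7a. TTNNGNAA, the loose form of sites for C/EBP factors, occurred 2, 3, 1 and 2 times before Clec4e, Clec4d, Clec5a and Clec4a2, in part over TGGAAA, and in 36.8% of windows. TGANTCA for AP-1 (6.75% of windows) and patterns for NF-kB (17.6%) and interferon regulatory factors (2.98%) had 0 matches in these 4 windows. Both strands were searched, and a match is a run of letters and not a measured site.

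Clec4n, which encodes the fungal mannan receptor Dectin-2, was lowered by LPS and slightly raised by salt. With LPS its values were 12.07, 11.94, 11.98 and 11.82 at 450 mOsm, and 11.74, 11.80, 11.77 and 11.66 at 290 mOsm. Without LPS they were 12.66, 12.57, 12.64 and 12.44 at 450 mOsm, and 12.34, 12.46, 12.19 and 12.21 at 290 mOsm. All 8 arrays with LPS lay below all 8 without, and the 2 groups without LPS overlapped. The fall with LPS was -0.62 ± 0.07 at 450 mOsm (1.54-fold lower, adjusted p = 1.88e-07) and -0.56 ± 0.07 at 290 mOsm (1.47-fold lower, adjusted p = 7.73e-07). Salt raised the gene by 0.21 ± 0.07 with LPS (adjusted p = 0.0228) and by 0.27 ± 0.07 without LPS (adjusted p = 0.00417), higher in 4 of 4 mice each time. The rise with LPS was lost without mouse 1 (adjusted p = 0.144) or mouse 3 (adjusted p = 0.0719), with median centring (adjusted p = 0.0852), or when 1 LPS array was left out, that of mouse 1 (adjusted p = 0.0822) or mouse 3 (adjusted p = 0.0525) at 450 mOsm or of mouse 4 at 290 mOsm (adjusted p = 0.0684). The rise without LPS was lost without mouse 3 (adjusted p = 0.0547).

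Clec7a fell with both treatments. The beta-glucan receptor gene had 11.50, 11.36, 11.57 and 11.53 at 450 mOsm with LPS, and 12.51, 12.43, 12.58 and 12.37 at 450 mOsm. At 290 mOsm it had 12.05, 12.01, 12.16 and 11.92 with LPS, and 12.81, 12.81, 12.78 and 12.72 without. No groups overlapped: both groups without LPS stood above both with it, and salt stood below normal medium within each pair. Salt lowered Clec7a by 0.55 with LPS (-0.55 ± 0.06, 1.46-fold lower, adjusted p = 1.53e-06) and by 0.31 without LPS (-0.31 ± 0.06, 1.24-fold lower, adjusted p = 0.000594). LPS lowered it 1.98-fold at 450 mOsm (-0.99 ± 0.06, adjusted p = 5.51e-11) and 1.68-fold at 290 mOsm (-0.75 ± 0.06, adjusted p = 2.92e-09). The interaction was -0.24 ± 0.09 (adjusted p = 0.0597), negative in 4 of 4 mice, and it passed with the mouse as a replicate block (adjusted p = 0.0295), as it did in 10 of 31 alternatives.

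Clec9a, typical of the cDC1 subset of dendritic cells, followed the same order of group means at a dim level. Its values were 5.22, 5.22, 4.85 and 5.31 at 450 mOsm with LPS, and 6.94, 6.74, 7.12 and 6.63 at 450 mOsm. At 290 mOsm they were 6.28, 5.97, 6.24 and 5.73 with LPS, and 7.27, 6.93, 7.47 and 7.07 without. The LPS arrays, 8 of 8, were dimmer than the filter level of 6.83, and the gene passed the filter through 6 arrays, all without LPS, where it was high. Its folds therefore rest on dim values, and the LPS calls were also made with no filter. LPS lowered Clec9a by 1.71 at 450 mOsm (-1.71 ± 0.14, 3.27-fold lower, adjusted p = 2.82e-09) and by 1.13 at 290 mOsm (-1.13 ± 0.14, 2.19-fold lower, adjusted p = 7.64e-07). Salt lowered it by 0.91 with LPS (-0.91 ± 0.14, 1.87-fold lower, adjusted p = 5.55e-05). Without LPS the salt difference was -0.33 ± 0.14 (adjusted p = 0.0654), negative in 4 of 4 mice, and it passed with the mouse as a replicate block (adjusted p = 0.0460). Of 6 tested cDC1 markers outside the list, 1 rose and 1 fell with salt in LPS-treated cells, where 38.6% of all genes were called. Without LPS, 2 rose and 1 fell with salt, where 44.3% were called. With LPS, 2 rose and 2 fell at 450 mOsm, and 2 rose and 3 fell at 290 mOsm. The shares of all genes called there were 71.8% and 73.5%. Xcr1, the chemokine receptor gene that defines cDC1, was dim in all groups, with means of 5.57 to 6.19.

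The response of Clec5a to LPS differed between the 2 media. The myeloid receptor gene had 9.30, 9.40, 9.49 and 9.33 at 450 mOsm with LPS, and 9.72, 9.39, 9.48 and 9.21 at 450 mOsm. At 290 mOsm it had 10.81, 10.73, 10.83 and 10.86 with LPS, and 10.04, 10.19, 9.72 and 10.12 without. The 2 groups at 450 mOsm overlapped, while the LPS arrays at 290 mOsm stood above all others. LPS raised Clec5a by 0.79 ± 0.10 at 290 mOsm (1.72-fold, adjusted p = 9.87e-07), and at 450 mOsm the difference was -0.07 ± 0.10 (95% interval -0.28 to 0.14, adjusted p = 0.554). Salt lowered it by 1.42 with LPS (-1.42 ± 0.10, 2.68-fold lower, adjusted p = 5.61e-09) and by 0.57 without LPS (-0.57 ± 0.10, 1.48-fold lower, adjusted p = 0.000187). With LPS, 46 of the 10236 genes fell more with salt. The interaction was -0.85 ± 0.14 (adjusted p = 0.000227), negative in 4 of 4 mice. Neutrophils and monocytes also express Clec5a. The neutrophil, macrophage and mast cell markers given above also fell with salt more often than they rose. Of 6 tested monocyte markers, 1 rose and 3 fell with salt in LPS-treated cells, and 2 rose and 2 fell without LPS. Neutrophil markers had a median salt change of -2.43 with LPS and -2.79 without, and Clec5a changed by -1.42 and -0.57. The part of these shifts in the Clec5a change was not tested.

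Clec4a2, the inhibitory receptor gene, fell most with LPS. Its values were 7.04, 7.14, 7.24 and 7.13 at 450 mOsm with LPS, and 9.30, 9.16, 9.02 and 8.96 at 450 mOsm. At 290 mOsm they were 8.33, 8.29, 8.51 and 8.47 with LPS, and 9.84, 9.75, 9.75 and 9.73 without. The 4 groups did not overlap and stood in the same order as for Clec7a, with 450 mOsm with LPS at the bottom. LPS lowered Clec4a2 3.93-fold at 450 mOsm (-1.97 ± 0.07, adjusted p = 3.35e-14) and 2.58-fold at 290 mOsm (-1.37 ± 0.07, adjusted p = 5.83e-12). Salt lowered it 2.40-fold with LPS (-1.26 ± 0.07, adjusted p = 3.43e-10) and 1.58-fold without LPS (-0.66 ± 0.07, adjusted p = 1.19e-06). The interaction was -0.61 ± 0.10 (adjusted p = 0.000279), negative in 4 of 4 mice. Clec4a2 has close relatives nearby on chromosome 6, among them its neighbour Clec4b1, and transcripts of such relatives can share probes, so its values are uncertain to that extent.

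**Figure D2:**
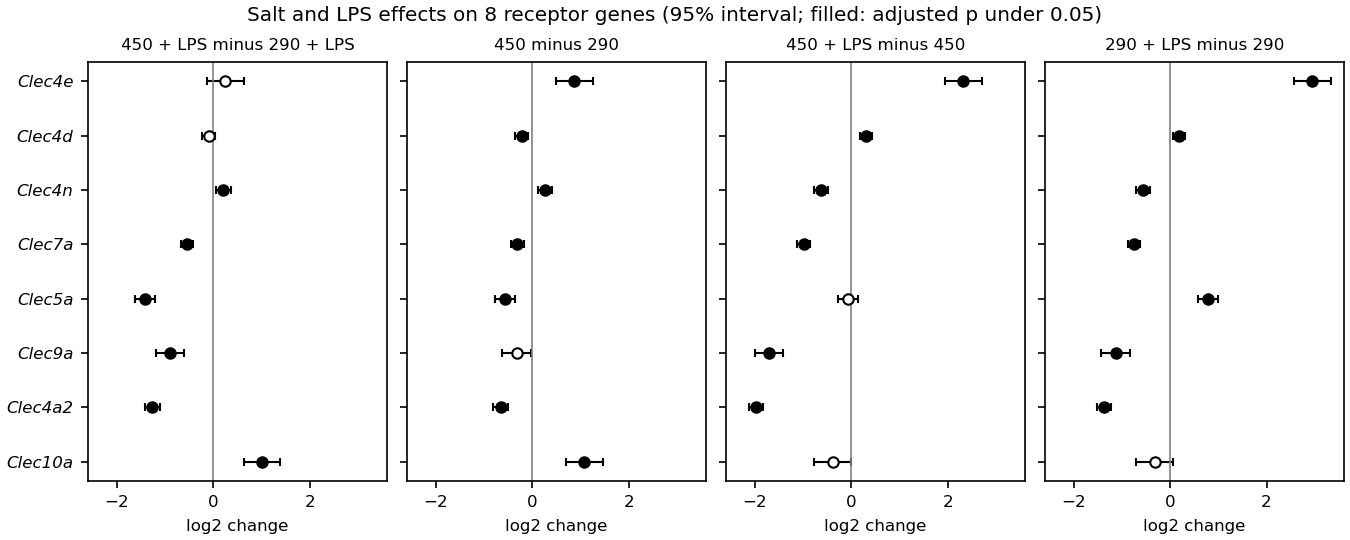
Log2 changes of the 8 tested genes in 4 comparisons, as limma estimates with 95% intervals. Filled points have adjusted p under 0.05. With LPS, Clec4e rose most and Clec4a2 and Clec9a fell most, and Clec10a is the gene that salt raised about 1 log2 unit both with LPS (1.01) and without (1.08).

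Clec10a was the receptor gene that salt raised most. The galactose-binding lectin gene had 7.20, 6.90, 6.45 and 6.43 at 450 mOsm with LPS, against 6.02, 5.83, 5.56 and 5.53 at 290 mOsm with LPS. Without LPS it had 7.46, 7.42, 6.99 and 6.65 at 450 mOsm, against 6.29, 5.99, 6.00 and 5.92 at 290 mOsm. All 8 arrays at 450 mOsm lay above all 8 at 290 mOsm, where every array was below the filter level of 6.83. Salt raised Clec10a 2.01-fold with LPS (1.01 ± 0.18, adjusted p = 0.000255) and 2.11-fold without LPS (1.08 ± 0.18, adjusted p = 0.000139). The gene passed the filter through 5 arrays, all at 450 mOsm, so it entered the test only through the medium in which it was high. Both salt calls were also made with no filter. LPS gave -0.38 ± 0.18 at 450 mOsm (adjusted p = 0.0665) and -0.32 ± 0.18 at 290 mOsm (adjusted p = 0.124). Both passed with the mouse as a replicate block (adjusted p = 0.00111 and 0.00451), and both were negative in 4 of 4 mice. Its group ranges overlapped between cells with and without LPS in either medium. Clec10a has a close relative in Mgl2, which salt also raised, by 1.82 ± 0.21 with LPS and 1.95 ± 0.21 without. Transcripts of such relatives can share probes, so the Clec10a values are uncertain to that extent. The part of Mgl2 in the Clec10a change was not tested.

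Cd209a stayed between 5.67 and 6.48 on all arrays, below the filter level, and was not among the genes tested. Its values were 6.31, 6.34, 6.08 and 5.91 at 450 mOsm with LPS, and 6.22, 6.36, 6.48 and 6.31 at 450 mOsm. At 290 mOsm they were 5.67, 5.92, 5.94 and 5.98 with LPS, and 6.35, 6.17, 6.11 and 6.02 without. Neighbouring groups in the order of means overlapped throughout. The groups at 290 mOsm with and without LPS, which are not neighbours in that order, did not overlap. With no filter, LPS gave -0.29 ± 0.10 at 290 mOsm (adjusted p = 0.0196) and salt gave 0.28 ± 0.10 with LPS (adjusted p = 0.0435). Both calls were lost without mouse 1 (adjusted p = 0.210 and 0.308). The LPS call was lost in 4 of 30 alternatives, also without mouse 2 (adjusted p = 0.0556). The salt call was lost in 16 of 30, among them quantile normalization (adjusted p = 0.144), cyclic loess (adjusted p = 0.207) and median centring (adjusted p = 0.0903).

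The interaction tests whether the salt change differs between cells with and without LPS. It was called for 3 of the 8 genes, Clec5a, Clec4a2 and Clec9a, 0 higher and 3 lower, where 10.7% of all genes were called higher and 10.4% lower (21.1% in all). All 3 had a larger fall with salt in the LPS-treated cells. For Clec5a the salt change within mice 1 to 4 was -1.504, -1.33, -1.34 and -1.53 with LPS, and -0.32, -0.80, -0.24 and -0.92 without. For Clec4a2 it was -1.29, -1.15, -1.27 and -1.34 with LPS, and -0.54, -0.59, -0.73 and -0.77 without. For Clec9a it was -1.06, -0.76, -1.39 and -0.42 with LPS, and -0.33, -0.19, -0.34 and -0.44 without, so that mouse 4 showed no larger fall. The Clec9a interaction (-0.58 ± 0.20, adjusted p = 0.0440) was lost in 17 of 30 alternatives, whose adjusted p ran from 0.0154 to 0.164. It was lost with no filter (adjusted p = 0.0685), cyclic loess (adjusted p = 0.0817) and median centring (adjusted p = 0.0703), and without mouse 1 (adjusted p = 0.164), mouse 2 (adjusted p = 0.131) or mouse 3 (adjusted p = 0.126). For Clec10a the interaction was -0.07, with a 95% interval from -0.60 to 0.47, for Clec4n -0.06 (-0.27 to 0.14) and for Clec4d 0.12 (-0.06 to 0.30).

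**Figure D3:**
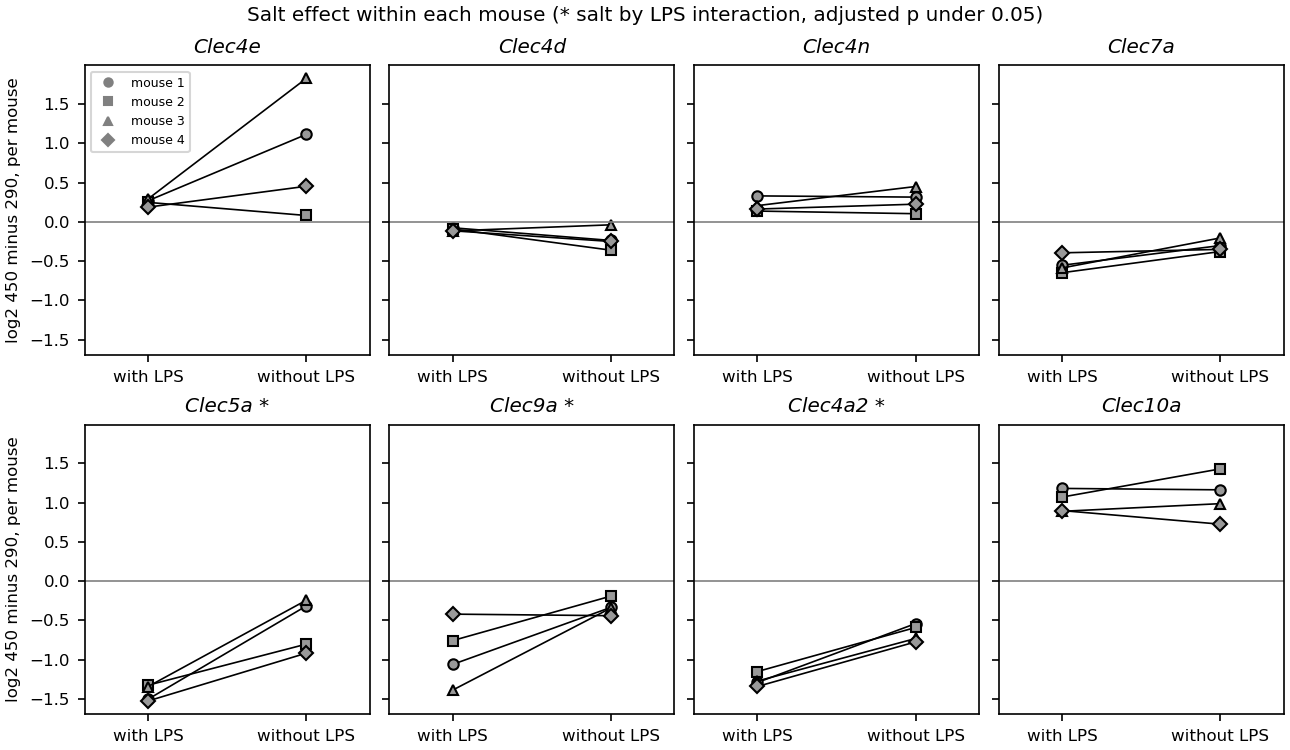
Salt change (log2 at 450 mOsm minus 290 mOsm) within each mouse, with LPS on the left and without LPS on the right of each panel, joined by a line per mouse. Lines slope upwards in 4 of 4 mice for Clec5a and Clec4a2, whose interaction was called, and for Clec7a, whose interaction was not. The interaction of Clec9a was also called, with lines sloping upwards in 3 of 4 mice.

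Genes that carry the receptors' signals were measured as a list of 29 adaptors, kinases, CARD9 module genes, transcription factors and inhibitors, of which 26 were tested. With salt, 3 rose and 12 fell in LPS-treated cells, with a median of -0.12, and 7 rose and 4 fell in cells without LPS, with a median of 0.05. The median over all genes was 0.00 in both, and 38.6% of them were called with LPS and 44.3% without. With LPS, 10 rose and 11 fell at 450 mOsm, with a median of 0.00, and 13 rose and 8 fell at 290 mOsm, with a median of 0.19, where the medians over all genes were -0.09 and -0.11 and the shares called 71.8% and 73.5%. The adaptor gene Fcer1g, the partner of Mincle and Dectin-2, rose with LPS by 0.26 ± 0.05 at 450 mOsm and 0.28 ± 0.05 at 290 mOsm, the first of which was lost under quantile normalization (0.08, adjusted p = 0.117). Tyrobp, the partner of Clec5a, fell in all 4 comparisons: by 0.44 with salt and LPS (-0.44 ± 0.06), by 0.28 with salt alone (-0.28 ± 0.06), by 0.69 with LPS at 450 mOsm (-0.69 ± 0.06) and by 0.53 with LPS at 290 mOsm (-0.53 ± 0.06).

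The kinase gene Syk and the phospholipase gene Plcg2, which acts after it, were lowered by salt with LPS and raised by salt without LPS. Syk changed by -0.26 ± 0.05 with LPS and by 0.23 ± 0.05 without (interaction -0.49 ± 0.08, adjusted p = 0.000161). Plcg2 changed by -0.48 ± 0.05 with LPS and by 0.29 ± 0.05 without (interaction -0.76 ± 0.07, adjusted p = 9.98e-07). Malt1, the protease of the CARD9 complex, rose with LPS by 2.00 ± 0.08 at 450 mOsm and 1.22 ± 0.08 at 290 mOsm (interaction 0.78 ± 0.12, adjusted p = 0.000125). Card9 itself fell with LPS, by 0.87 at 450 mOsm (-0.87 ± 0.06) and 0.61 at 290 mOsm (-0.61 ± 0.06). The NFAT target gene Egr2 fell by 1.54 with LPS at 450 mOsm (-1.54 ± 0.08) and by 1.92 at 290 mOsm (-1.92 ± 0.08), and with salt by 0.75 in LPS-treated cells (-0.75 ± 0.08) and 1.13 in the others (-1.13 ± 0.08). Ptpn6, the phosphatase that Clec4a2 recruits, fell with salt in LPS-treated cells (-0.75 ± 0.06), averaging 11.20 at 450 mOsm and 11.95 at 290 mOsm, and its interaction was -0.77 ± 0.08 (adjusted p = 3.37e-06). Inpp5d, a lipid phosphatase gene, fell with LPS by 1.48 at 450 mOsm (-1.48 ± 0.08) and 1.26 at 290 mOsm (-1.26 ± 0.08).

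Other genes with a C-type lectin domain were compared as a list of 58, of which 54 were measured and 21 passed the filter. With salt, 7 rose and 9 fell in LPS-treated cells, where 38.6% of all genes were called, and 7 rose and 9 fell without LPS, where 44.3% were. Their medians were -0.15 with LPS and -0.01 without, where that of all genes was 0.00. Mgl2, a galactose-type lectin gene closely related to Clec10a, rose by 1.82 ± 0.21 with LPS (adjusted p = 1.75e-06) and by 1.95 ± 0.21 without (adjusted p = 8.10e-07). The inhibitory receptor gene Clec12a fell by 1.26 with LPS (-1.26 ± 0.08) and by 1.27 without (-1.27 ± 0.08). Clec4b1, next to Clec4a2 on chromosome 6, averaged 4.71 at 450 mOsm and 6.30 at 290 mOsm with LPS. Without LPS it averaged 7.43 and 8.39 in these media, the same order of groups as Clec4a2. With LPS, 7 rose and 8 fell at 450 mOsm, and 6 rose and 9 fell at 290 mOsm, close to the shares of all genes called, 71.8% and 73.5%. The uptake receptor gene Ly75 (DEC-205) rose by 2.06 ± 0.09 at 450 mOsm and 2.11 ± 0.09 at 290 mOsm. Cd69, an early activation gene, had the largest LPS change of the list, 4.69 at 450 mOsm and 6.05 at 290 mOsm (interaction -1.36). Cd93, a gene of phagocytes and endothelium, fell by 2.78 (-2.78 ± 0.06) and 1.69 (-1.69 ± 0.06) in the same order of media. The closest relatives of Clec4a2 by name, Clec4a1 and Clec4a3, were picked after their values were seen. With LPS at 290 mOsm they moved apart, Clec4a1 by 0.71 ± 0.08 and Clec4a3 by -0.83 ± 0.07. Salt in LPS-treated cells lowered both, with changes of -0.55 ± 0.08 for Clec4a1 and -0.60 ± 0.07 for Clec4a3. As for Clec4a2, their interactions were negative, at -0.35 (adjusted p = 0.0449) and -0.39 (adjusted p = 0.0111). That of Clec4b1 was -0.63 (adjusted p = 0.0247).

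**Figure D4:**
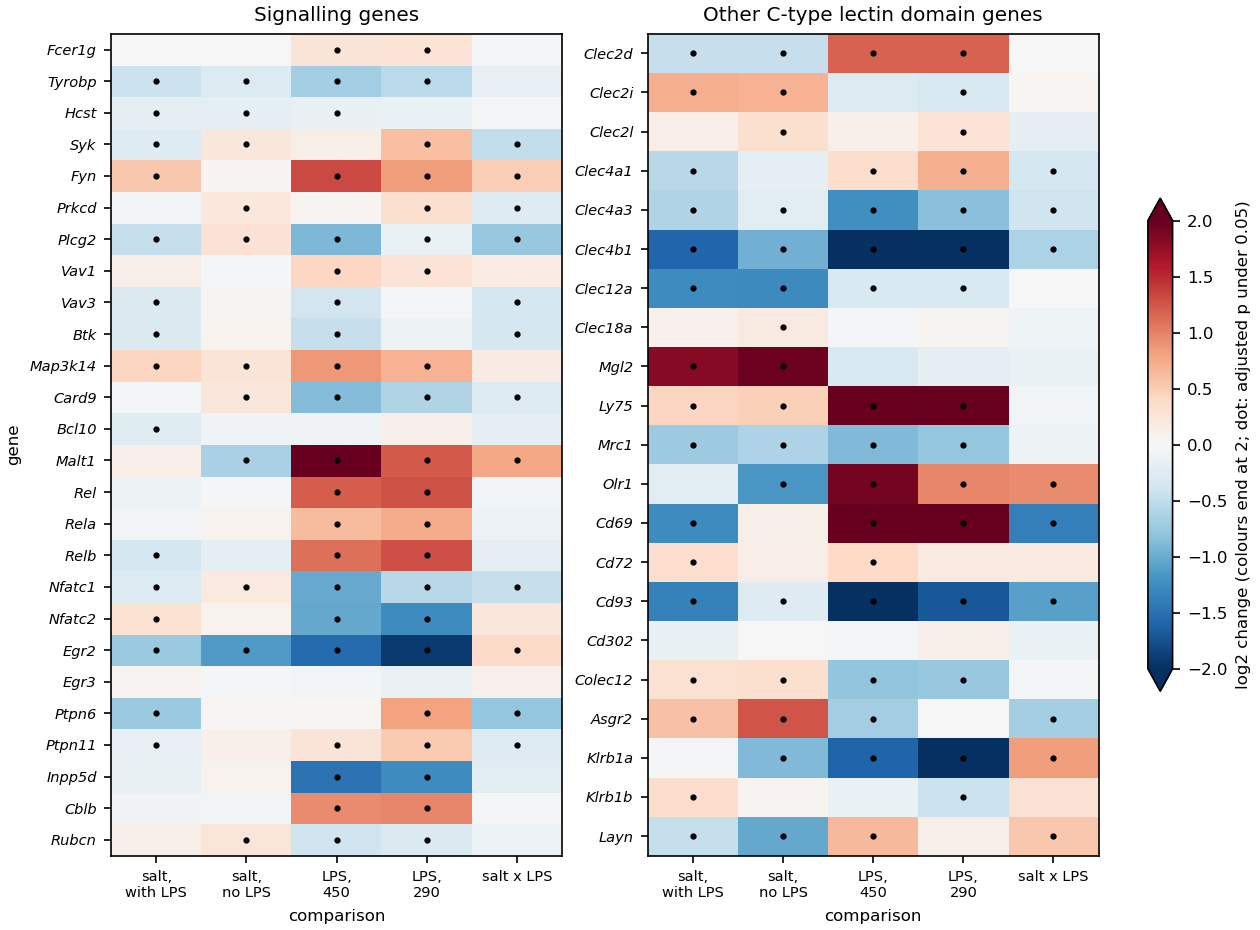
Log2 changes of 26 signalling genes and 21 other C-type lectin domain genes in 5 comparisons, where a dot marks an adjusted p under 0.05. Malt1 and Ly75 are strongly red with LPS, Clec4b1 and Cd93 strongly blue, and Mgl2 is red in both salt columns.

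The receptors fell into distinct patterns over the 16 arrays, given as Pearson's r without a test, since the arrays share 4 groups. Clec4a2, Clec7a and Clec9a ran together, with r from 0.958 to 0.986 between pairs, and opposite to Clec4e, with r from -0.911 to -0.896. Clec10a ran opposite to Clec5a (r = -0.785), and Clec4d opposite to Clec4n (r = -0.844). Among all other tested genes, those most like Clec4e were Sod2 (r = 0.996), Acod1 (0.991) and Cav1 (0.988). Those most like Clec4a2 were Rgs2 (0.995), Ptpn22 (0.994) and Clec4b1 (0.990), and those most like Clec7a were Timp2 (0.987), Phactr2 (0.985) and Idh2 (0.985). Clec5a was most like Stfa2 (0.956), a member of the neutrophil marker list, then Ankrd22 (0.954) and Cd33 (0.951). Clec10a was most like Scd1 (0.961), Aldoc (0.951) and Mgl2 (0.947). Clec9a was most like Cnot6l (0.981), Arsk (0.978) and Hacd4 (0.975), Clec4n like Aifm1 (0.972), Tns1 (0.966) and Ndufc2 (0.964), and Clec4d like Piezo1 (0.943), Apbb2 (0.942) and Met (0.938).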

How the data were processed

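Total RNA of 16 cultures was measured on 1 array each. The deposited values are log2 expression of 22549 probe sets, which the authors made with RMA in the oligo package, per the submitters' processing notes. RMA sets arrays to like distributions, so a shift of most genes would be largely removed, and it compresses differences between dim signals. Differences between very bright array signals can be compressed as well. No source used here gives a version or a genome build. The platform's annotation gives 1 symbol for 20646 probe sets, several for 551 and none for 1352. The filter asked for 4 or more arrays above 6.83, the median over the whole table, and left 12097 probe sets. Each gene was read from its single-symbol probe set with the highest mean (10236 genes).

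The tests were made by limma 3.58.1 (R 4.3.3), in 1 model with a mean per group (12 residual and 5.53 prior degrees of freedom), two-sided, with Benjamini-Hochberg adjustment over all genes. Simulated data held 200 changed genes among 10236. A log2 change of 0.5 was recovered in 92.5% of them for salt with LPS and 94% for salt without LPS. The LPS change was recovered in 92% at 450 mOsm and 91% at 290 mOsm, and their difference in 79.5%. Of the calls, 6.57%, 4.08%, 5.15%, 2.67% and 5.92% were false, in the same order. In the real data 21.1% to 73.5% of genes were called, a larger share than was simulated, so these rates need not hold there. Replicate numbers pair the arrays, since the labels give 1 mouse to each number. Deviations of arrays of 1 mouse correlated with r from -0.146 to 0.433 (median 0.0953), against a median of -0.0351 for different mice. The mouse as a block was an alternative, beside other filters, probe set rules, normalizations, variance models and left-out arrays. The members, the gene lists and the naming rule were chosen with earlier results of these data known. That rule takes all members, called genes of the signalling lists, the 5 largest called changes among other lectin genes, and the 3 genes most like each member. The number of arrays limits the precision. Promoter sequences are from RefSeq, where 7 of 9 members had one. Figures were drawn with matplotlib 3.10.9.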

Additional observations from a re-analysis of the deposited data

Results flagged for a closer look

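The effect of salt differed between cells with and without LPS for 3 receptor genes, by the interaction term of limma. The difference of the salt changes was -0.85 for Clec5a (adjusted p = 0.000227), -0.61 for Clec4a2 (adjusted p = 0.000279) and -0.58 for Clec9a (adjusted p = 0.0440). It was negative in 4 of 4 mice for Clec5a and Clec4a2 and in 3 of 4 for Clec9a. The Clec9a call was lost in 17 of 30 alternatives, with no filter (adjusted p = 0.0685) and without mouse 1 (0.164), mouse 2 (0.131) or mouse 3 (0.126) among them. No array stood apart from the other 3 of its group by Dixon's criterion in the 36 sets of 4 arrays examined, where chance flags about 1 in 20.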

How the results depend on the processing

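Under 32 alternatives, none of the receptors' called changes changed sign, and 30 of 45 changes of the 9 genes kept their side of the threshold under every alternative that gave a value. Leaving out single arrays or mice gave 5 to 6 called receptors for salt with LPS, 6 to 8 for salt without LPS, 6 to 7 for LPS at 450 mOsm, 7 to 7 for LPS at 290 mOsm and 2 to 4 for the interaction. Under the other alternatives the counts were 4 to 7, 6 to 8, 5 to 7, 6 to 8 and 2 to 4 in the same order. Pairing the arrays by mouse (replicate block) changed 4 receptor calls: Clec9a for salt without LPS (adjusted p = 0.0460), Clec10a for LPS at 450 mOsm (0.00111) and at 290 mOsm (0.00451), and the Clec7a interaction (0.0295). It changed no other call of the named genes. The interaction could not be fitted to only the groups compared. Cyclic loess moved the median change of all genes with LPS to 0.03 at 450 mOsm, against -0.09, and to 0.02 at 290 mOsm, against -0.11, so small LPS changes, such as those of Clec4d, are relative to that median. It put 50.8% of the calls for LPS at 290 mOsm on the higher side, against 35.9% otherwise, and 50.4% at 450 mOsm, against 36.8%, and median centring put 30.5% of the calls for salt without LPS there, against 46.4%. Dim signal limits Clec9a, Clec10a and Cd209a. The causes of these shifts were not tested.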

Other observations

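Clec10a differed between mice in a repeated way. The array of mouse 1 was the highest of its group in 4 of 4 groups, at 7.20 at 450 mOsm with LPS, 7.46 at 450 mOsm, 6.02 at 290 mOsm with LPS and 6.29 at 290 mOsm. For Mgl2, the related galactose-type lectin gene, mouse 2 was highest in all groups, at 11.41, 11.77, 9.62 and 9.78 in the same order, followed by mouse 1 at 11.37, 11.63, 9.45 and 9.66. Mice 3 and 4 were lower, between 8.94 and 11.20. Whether the 2 genes vary together between animals was not tested.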
